A study of Mus musculus with 12 samples.

Results

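Astrocytes of the hemisphere opposite an experimental stroke were compared between tamoxifen-treated mice labelled Astro-KO and corn-oil-treated mice labelled wild-type, by sequencing the RNA of each hemisphere's selected astrocytes. The members are the 6 contralateral libraries, chosen by their titles from 12 libraries in all: 3 of mice labelled Astro-KO (295, 298 and 300) and 3 of mice labelled wild-type (296, 297 and 474). All genes were tested. Of 48709 genes in each table, 15571 had enough counts for a test.

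All 6 mice were C57BL/6, 90 to 120 days old, and carried Gfap-CreERT2+/- together with floxed alleles. Gfap-CreERT2 is a Cre recombinase that is made in Gfap-expressing cells and enters the nucleus once tamoxifen is given. The mice labelled wild-type carried the same transgene and the same floxed alleles and received corn oil in place of tamoxifen. Tamoxifen and the deletion therefore cannot be told apart. Gfap is also active in neural stem cells and other Gfap-positive cells, so the promoter limits the model to those cells rather than to astrocytes alone. Brains were taken 24 h after tMCAO, a stroke model in which the middle cerebral artery of 1 hemisphere is closed for a time and then reopened. Cells were selected with an antibody to ACSA-2, a surface antigen carried by the astrocytic sodium pump subunit Atp1b2. The groups are called KO and WT here, by label, and values of single libraries are given in the order 295, 298 and 300 for KO and 296, 297 and 474 for WT.

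Astrocytes take up glutamate and potassium around synapses, cover blood vessels with endfeet, and supply metabolites and cholesterol to neurons. After a stroke they can become reactive, with more Gfap and a set of injury genes near the lesion and, more weakly, at a distance from it. The contralateral hemisphere of a tMCAO brain is not an uninjured brain, since it shares the surgery, the circulation and the systemic response. Oligodendrocytes are a separate glial lineage that wraps axons in myelin, and myelin is a known carry-over in brain cell suspensions.

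Total counts were 11913464, 13462274 and 15780600 in KO libraries and 11935558, 12554526 and 12516804 in WT libraries, with 18292 to 18911 genes detected in a library. Defining astrocyte markers were abundant in all 6. Slc1a2, the main glutamate transporter, stood at 2015, 2896 and 2574 TPM in KO libraries, against 1547, 1382 and 1705 TPM in WT libraries, where TPM is the deposited level scaled for transcript length. Atp1b2 stood at 2917, 3072 and 3228 TPM in KO libraries, against 1699.7, 2028 and 2401 TPM in WT libraries. The library of mouse 296 stood apart from the other 5. It lay at 76.75 on the first principal component of the 6 libraries, which held 49.4% of the variance, against -29.69 to 1.77 for the others. Like a male it had only 8 Xist counts together with 2733 from Y-linked genes, against 15380 to 28837 counts of Xist and 0 to 8 Y-linked counts in the other 5. Sex is therefore unbalanced between the groups. The root mean square log2 distance between pairs of libraries was 0.386 to 0.45 within KO, 0.513 to 0.809 within WT and 0.529 to 0.876 between the groups.

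Most of what passed the test was lower in KO astrocytes. Of the 15571 genes, 233 passed (1.5%; edgeR quasi-likelihood test, adjusted p under 0.05, two-sided). Of these, 220 fell in KO libraries (1.41% of the genes tested) and 13 rose (0.0835%). The falls were large, with a median log2 fold change of -1.30 (range -3.10 to -0.54), and 167 of them were more than 2-fold, of 169 such genes in both directions (1.09%). The rises were smaller, with a median of 0.92 (range 0.60 to 1.22). In all 233 genes the 3 KO libraries lay on one side of the 3 WT libraries, as they did in 3808 of all genes tested (24.5%; 1712 with KO higher, 11%, and 2096 with KO lower, 13.5%). Among the 220 falls the highest KO library was mouse 295 in 158 genes, and the highest WT library was mouse 296 in 104. Over all genes tested the median log2 fold change was -0.0016. An unadjusted p under 0.05 was reached by 2230 of them (14.3%), the share to set the counts of each list against. Of the same 15571 genes, DESeq2 called 660 and limma-voom 224. The number of calls depended on which library was left out: no gene passed without KO 298 or without KO 300, with 1433 and 1561 genes at an unadjusted p under 0.05, and 127 passed without KO 295, 217 without WT 296, 55 without WT 297 and 184 without WT 474. The rises numbered 0 without KO 298 or KO 300, 3 without KO 295, 5 without WT 296, 1 without WT 297 and 36 without WT 474.

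**Figure D1:**
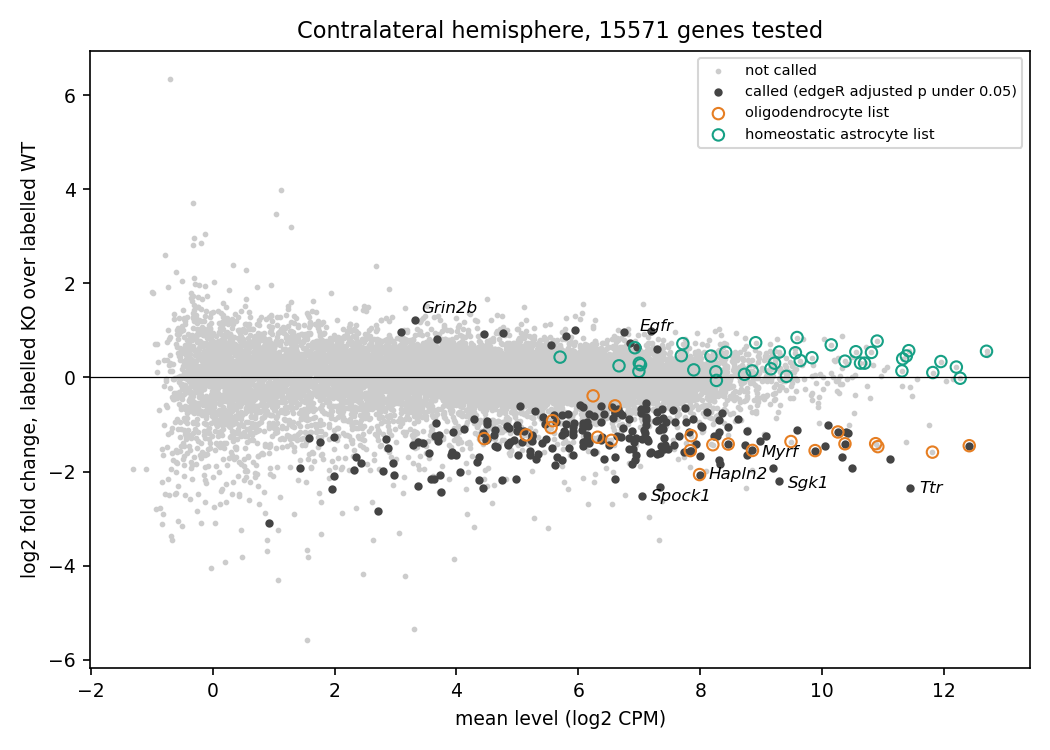
Log2 fold change of KO over WT contralateral libraries (vertical axis) against mean level in log2 CPM (horizontal axis) for the 15571 genes tested. Dark points are the 233 genes that passed, orange rings the 22 oligodendrocyte genes and green rings the 40 homeostatic astrocyte genes. The dark points lie mostly below 0, and every orange ring lies below 0.

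Genes of myelin and of myelinating oligodendrocytes held the most falls of any gene list. Of 22 oligodendrocyte genes, 8 fell and 0 rose, while 1.41% of all genes tested fell. All 22 had a negative log2 fold change, with a median of -1.38 against -0.0016 over all genes. In 14 of the 22 the KO libraries all lay below the WT libraries, against 13.5% of all genes tested. The 8 falls included Hapln2, Myrf, Tspan2, Mal, Mag, Cnp and Mog. The promoters of 3 of them are shown: that of Hapln2, the member with the largest fall, and those of Mag and Cnp, chosen because in their promoters the core of the motif bound by SOX factors, ACAAAG, was found on either strand. Sequences are RefSeq's for GRCm38.p6, 250 bases before to 50 after the gene's first listed start, written 5′ to 3′ on the gene's strand, with the motif in capitals.
Hapln2 chr3:88027462-88027761 (- strand): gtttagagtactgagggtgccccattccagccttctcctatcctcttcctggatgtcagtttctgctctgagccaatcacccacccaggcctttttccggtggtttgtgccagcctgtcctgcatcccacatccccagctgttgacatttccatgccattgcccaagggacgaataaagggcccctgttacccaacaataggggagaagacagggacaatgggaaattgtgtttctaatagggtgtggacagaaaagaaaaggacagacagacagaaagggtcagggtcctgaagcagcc
Mag chr7:30914814-30915113 (- strand): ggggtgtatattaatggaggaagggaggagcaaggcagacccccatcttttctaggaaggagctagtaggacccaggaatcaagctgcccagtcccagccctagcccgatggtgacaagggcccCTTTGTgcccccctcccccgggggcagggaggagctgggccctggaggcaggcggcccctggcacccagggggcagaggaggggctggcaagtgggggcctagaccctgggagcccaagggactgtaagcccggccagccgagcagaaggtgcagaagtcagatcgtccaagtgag
Cnp chr11:100574689-100574988 (+ strand): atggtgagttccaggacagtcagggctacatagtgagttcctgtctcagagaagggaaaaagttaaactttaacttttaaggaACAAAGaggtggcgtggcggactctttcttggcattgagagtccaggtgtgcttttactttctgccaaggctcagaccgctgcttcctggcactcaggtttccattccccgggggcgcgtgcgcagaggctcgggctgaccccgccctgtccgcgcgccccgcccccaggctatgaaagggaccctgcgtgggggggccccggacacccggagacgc
The match in Mag is CTTTGT, the reverse complement. Of the 8 genes, 6 were in the promoter table, and 2 of these 6 (33.3%) held the motif, against 5055 of 27025 promoters (18.7%) in the whole table. The match describes letters in this window and not a bound site.

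Hapln2, a link protein of the matrix around nodes of Ranvier (chr3:88021750-88027583, mm10), had 90.2, 82.1 and 71.7 CPM in KO libraries, against 369, 344 and 308 CPM in WT libraries. The lowest WT library was more than 3 times the highest KO library. The log2 fold change was -2.06 ± 0.24 (log2, SE; edgeR adjusted p = 0.0072).

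Myrf, the transcription factor that switches on myelin genes in differentiating oligodendrocytes, had 251, 162 and 138 CPM in KO libraries, against 489.7, 597 and 528 CPM in WT libraries, a log2 fold change of -1.55 ± 0.24 (log2, SE; edgeR adjusted p = 0.0112). KO 295 was the highest of the KO libraries here, as it was for most falls. Mag, an adhesion protein on the axonal side of myelin, averaged 404 ± 151 CPM in KO and 1186 ± 122 CPM in WT libraries (SD, n = 3 each), a change of -1.55 ± 0.29 (log2, SE; edgeR adjusted p = 0.0231). Mog, on the outer face of the sheath, averaged 114 ± 33.9 CPM in KO and 334 ± 78.1 CPM in WT libraries, a change of -1.56 ± 0.31 (log2, SE; edgeR adjusted p = 0.0295). Cnp, an enzyme of non-compact myelin, averaged 787 ± 206 CPM in KO and 1758 ± 177 CPM in WT libraries, a change of -1.16 ± 0.23 (log2, SE; edgeR adjusted p = 0.0261). Mal, a proteolipid of myelin membranes, and Tspan2, a tetraspanin of oligodendrocytes, changed by -1.41 ± 0.24 (log2, SE; edgeR adjusted p = 0.0156) and -1.42 ± 0.23 (log2, SE; edgeR adjusted p = 0.0142).

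Members of the list that did not pass pointed the same way. Mbp, the basic protein that compacts myelin, had 1655, 1448 and 1371 CPM in KO libraries, against 4961, 3657 and 4826 CPM in WT libraries, and its log2 fold change of -1.59 ± 0.52 did not pass (edgeR adjusted p = 0.184) although its groups did not overlap. Mobp had 840.3, 884 and 746 CPM in KO libraries, against 1729, 2564 and 2550.1 CPM in WT libraries and did not pass either (edgeR adjusted p = 0.167). Both were named after their values were seen. The mean of the whole list was 7.48, 7.13 and 6.75 log2 CPM in KO libraries, against 7.89, 8.58 and 8.67 log2 CPM in WT libraries, a difference of -1.26 log2 units (exact permutation test, two-sided, p = 0.1, the smallest that 3 against 3 allows). No defining marker of oligodendrocytes was at 0 in either group. In bulk RNA, fewer cells of a type and less RNA per cell cannot be told apart. Oligodendrocyte progenitor genes differed less, with a median of -0.32, and 1 of 13 fell: Pcdh15, a protocadherin, at -1.35 ± 0.29 (log2, SE; edgeR adjusted p = 0.0428).

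Some falls outside the list are also genes known from myelinating cells. They were picked after their values were seen, and 208 of the 233 called genes are in no list. Fa2h and Gal3st1 make the hydroxylated and sulphated galactolipids of myelin, Cers2 makes very long chain ceramides, and Abca2 is a lipid transporter of oligodendrocytes. Fa2h had 108, 72.04 and 55.8 CPM in KO libraries, against 130.4, 232 and 244 CPM in WT libraries, with a log2 fold change of -1.36 ± 0.28, and Cers2 had 215, 207 and 179 CPM in KO libraries, against 366, 362 and 390.3 CPM in WT libraries, with a log2 fold change of -0.90 ± 0.15. Nfasc and Cntn2, adhesion proteins of the node region, averaged 363 ± 48.5 CPM in KO and 789 ± 28.04 CPM in WT libraries and 276 ± 79.97 CPM in KO and 708 ± 115 CPM in WT libraries. Sirt2, a deacetylase abundant in oligodendrocytes, averaged 250.3 ± 17.5 CPM in KO and 419.6 ± 33.2 CPM in WT libraries. Sirt2 counts were 0.712 of the reads implied by its deposited RPKM, so its level is less certain. Erbb3, a neuregulin receptor, fell by 1.11 on the log2 scale (45.2 ± 10.99 CPM in KO and 97.7 ± 17.8 CPM in WT libraries; edgeR adjusted p = 0.0364). Zfp488 and Zfp536, zinc finger proteins of the oligodendrocyte and neural lineages, also fell, with log2 fold changes of -1.44 and -1.50.

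With the mean of the oligodendrocyte list added to the model, no gene passed, and 2688 genes had an unadjusted p under 0.05. All 233 genes kept their sign in that fit. The median log2 fold change of the 220 falls was -0.97 with the term and -1.30 without it, and that of the 13 rises 0.83 with it and 0.92 without it. The smallest adjusted p among the falls was then 0.132 (edgeR). The list mean itself did not overlap between the groups, and 8 of its members were among the falls, so this fit can hardly separate it from the group.

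**Figure D2:**
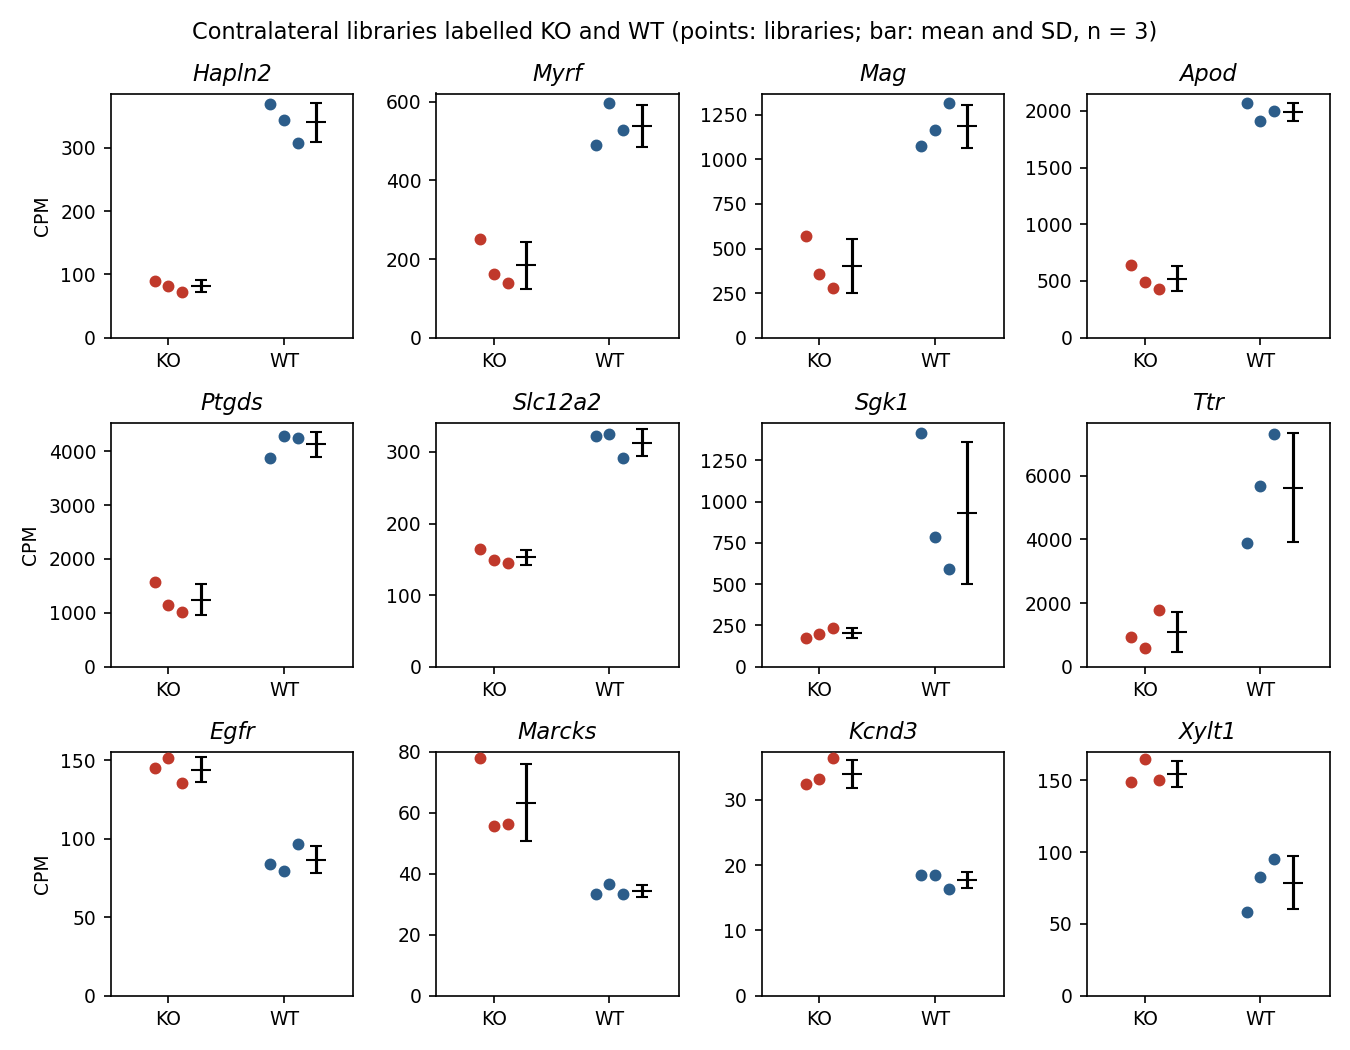
Levels in CPM (vertical axes, from 0) of 12 genes in each contralateral library, KO at the left and WT at the right; points are libraries, and the bar and whiskers the mean and SD of 3. Hapln2, Myrf, Mag, Apod, Ptgds, Slc12a2, Sgk1 and Ttr are lower in KO and Egfr, Marcks, Kcnd3 and Xylt1 higher, with no overlap of the groups; Sgk1 has its highest WT value in mouse 296.

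The 20 largest falls among named genes with a mean of at least 2 log2 CPM held genes of many kinds. Apod, a lipocalin apolipoprotein made by glia, had 641, 494 and 430.3 CPM in KO libraries, against 2067, 1907 and 1998 CPM in WT libraries, a log2 fold change of -1.93 ± 0.30 (log2, SE; edgeR adjusted p = 0.0112). Ptgds, prostaglandin D synthase and itself a lipocalin, had 1572, 1151 and 1014 CPM in KO libraries, against 3866, 4279.9 and 4249 CPM in WT libraries, a log2 fold change of -1.73 ± 0.24, named after its values were seen. The WT libraries of both genes lay close together, and KO 295 was the highest KO library. Spock1, a testican proteoglycan, had 34.7, 51.02 and 32.7 CPM in KO libraries, against 389, 157 and 138 CPM in WT libraries, with a log2 fold change of -2.53 ± 0.51 (log2, SE; edgeR adjusted p = 0.0314), and here mouse 296 was far above the other WT libraries. Sez6l2, a membrane protein with complement-like domains, had 305, 257 and 209 CPM in KO libraries, against 847, 1017 and 1039.7 CPM in WT libraries, with a log2 fold change of -1.91 ± 0.24 (log2, SE; edgeR adjusted p = 0.00752). With the mean of the oligodendrocyte list in the model, the log2 fold change was -1.03 for Apod, -1.09 for Sez6l2 and -3.63 for Spock1 (edgeR adjusted p = 0.194, 0.143 and 0.132). Hapln2, itself a member of that list, was at -1.80. Because the list mean did not overlap between the groups, these shifts cannot sort genes by their relation to oligodendrocytes.

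Bcat1, which transfers the amino group of branched-chain amino acids, averaged 20.3 ± 0.850 CPM in KO and 90.7 ± 46.4 CPM in WT libraries and fell by 2.16 on the log2 scale (edgeR adjusted p = 0.0168). Ada, which deaminates adenosine, averaged 3.502 ± 0.598 CPM in KO and 15.7 ± 7.61 CPM in WT libraries and fell by 2.17 (edgeR adjusted p = 0.0296). Cyp2j12 and Cyp3a13, cytochromes P450, had log2 fold changes of -2.18 ± 0.29 and -2.31 ± 0.50. Arrdc2, an arrestin-domain protein, had 48.6, 53.96 and 68.7 CPM in KO libraries, against 429, 277 and 159.7 CPM in WT libraries, a log2 fold change of -2.34 ± 0.46. Casq1, Tnni1 and Il12rb1, known from muscle calcium stores, from slow muscle troponin and as an interleukin receptor subunit, fell at low levels, averaging 2.71, 7.59 and 4.502 CPM in KO and 10.8, 33.6 and 20.1 CPM in WT libraries. Cldn1, a claudin of tight junctions, averaged 3.22 ± 1.59 CPM in KO and 13.7 ± 1.64 CPM in WT libraries, a log2 fold change of -2.08 ± 0.46. Rasgef1c, Snx22, Smco3 and Aim1l complete the 20, apart from Tubb3, Hapln2, Sgk1 and Ttr, with log2 fold changes of -2.85, -2.44, -2.18 and -1.96. Without the contralateral library of mouse 296, 10 of the 20 no longer passed in edgeR: Rasgef1c, Spock1, Snx22, Arrdc2, Cyp3a13, Sgk1, Ada, Il12rb1, Cldn1 and Aim1l. Rasgef1c was then at -2.22 (edgeR adjusted p = 0.117) and Spock1 at -1.91 (edgeR adjusted p = 0.0711), and these 2 moved by more than 1.5-fold. A fit without both libraries of mouse 296 called 333 genes. Of the 20, Rasgef1c, Cyp3a13 and Ada did not pass in it (edgeR adjusted p = 0.118, 0.0684 and 0.0781), so the outcome depended on which libraries were left out. Tubb3, a tubulin used as a neuronal marker, changed by -2.35 ± 0.39, but its counts were only 0.181 of the reads implied by its deposited RPKM, so its value is uncertain. Of the 19 neuronal genes tested it was the 1 that fell, and the list's median was -0.28. Cldn1 counts were 0.679 of the reads implied by its deposited RPKM, so its level is less certain.

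Sgk1, a kinase gene induced by glucocorticoids and by osmotic and ionic stress (chr10:21882184-21999903), had 176, 196 and 235 CPM in KO libraries, against 1418, 788 and 593 CPM in WT libraries. Its log2 fold change was -2.21 ± 0.42 (log2, SE; edgeR adjusted p = 0.0249). Without the contralateral library of mouse 296, the highest of the 3 WT libraries, it was -1.77 and did not pass (edgeR adjusted p = 0.0587, and at most 0.152 over all settings tried). Without both libraries of that mouse it was also -1.77 and passed (edgeR adjusted p = 0.0285). Sgk1 was the 1 of 18 glucocorticoid-responsive genes that fell in edgeR (9 at an unadjusted p under 0.05, 5 by DESeq2 and 1 by limma-voom), 0 had a positive log2 fold change, and the median was -0.98. The list mean was 6.50, 6.68 and 7.17 log2 CPM in KO libraries, against 8.86, 7.61 and 7.09 log2 CPM in WT libraries (exact permutation test, p = 0.2), and the groups overlapped. Fkbp5, a chaperone induced by the glucocorticoid receptor, had 70.03, 70.4 and 132 CPM in KO libraries, against 564, 124 and 95.04 CPM in WT libraries and did not pass (edgeR adjusted p = 0.341). Mouse 296 was above the other libraries in this list.

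Choroid plexus genes were lower in KO. This epithelium makes cerebrospinal fluid and is not expected among selected astrocytes. Ttr, the thyroid hormone carrier and its most abundant transcript, had 935, 573 and 1793 CPM in KO libraries, against 3899, 5687 and 7306 CPM in WT libraries, a log2 fold change of -2.36 ± 0.50 (log2, SE; edgeR adjusted p = 0.0388). Enpp2, the secreted lysophospholipase autotaxin, made by both choroid plexus and oligodendrocytes, had 651, 547 and 886 CPM in KO libraries, against 1259, 2509 and 2963 CPM in WT libraries, a log2 fold change of -1.69 ± 0.35 (log2, SE; edgeR adjusted p = 0.0358). Enpp2 counts were 0.61 of the reads implied by its deposited RPKM, so its level is less certain. Of the 14 genes of the list 2 fell, while 1.41% of all genes tested did, all 14 had a negative log2 fold change, and the median was -1.79. In 6 of the 14 the KO libraries all lay below the WT libraries, against 13.5% of all genes tested. Kl, the klotho gene, had 20.3, 15.9 and 51.7 CPM in KO libraries, against 33.7, 131 and 160.5 CPM in WT libraries and did not pass (edgeR adjusted p = 0.191). The list mean was 4.44, 4.15 and 5.03 log2 CPM in KO libraries, against 5.03, 6.35 and 6.41 log2 CPM in WT libraries (exact permutation test, p = 0.1, the smallest possible), with the highest KO and lowest WT libraries nearly equal. The part of choroid plexus RNA in the falls below was not tested.

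Several ion transport genes fell. Slc12a2, the sodium-potassium-chloride cotransporter NKCC1, had 164, 149.6 and 144 CPM in KO libraries, against 322, 325 and 291 CPM in WT libraries, a log2 fold change of -1.04 ± 0.18 (log2, SE; edgeR adjusted p = 0.0168). Stk39, the kinase SPAK that phosphorylates and activates it, had 37.6, 34.8 and 35.5 CPM in KO libraries, against 95.5, 70.01 and 73.2 CPM in WT libraries, a log2 fold change of -1.14 ± 0.18 (log2, SE; edgeR adjusted p = 0.0112). Both genes thus stood apart between the groups in the same direction. Slc12a2 counts were 0.601 of the reads implied by its deposited RPKM, so its level is less certain. Atp1b3, a beta subunit of the sodium pump, fell by 0.65 (145 ± 8.09 CPM in KO and 228 ± 23.3 CPM in WT libraries; edgeR adjusted p = 0.0408). These were 3 of 20 genes of sodium, calcium and chloride transport, none rose, and the list's median was -0.10. Over all genes tested 1.41% fell. Among 20 bicarbonate transporters and carbonic anhydrases 2 fell: Car14, a membrane carbonic anhydrase (55.7, 49.8 and 53.5 CPM in KO libraries, against 123, 115 and 130.2 CPM in WT libraries; -1.21 ± 0.18 (log2, SE; edgeR adjusted p = 0.0112)), and Slc4a2, a chloride/bicarbonate exchanger (146 ± 3.74 CPM in KO and 237 ± 26.7 CPM in WT libraries; -0.70 ± 0.14 (log2, SE; edgeR adjusted p = 0.0295)). The median of that list was 0.05. Slc4a2 counts were 0.749 of the reads implied by its deposited RPKM, so its level is less certain too. Slc4a4, the sodium bicarbonate cotransporter NBCe1 of astrocytes, averaged 1195 ± 34.9 CPM in KO and 663 ± 141 CPM in WT libraries and did not pass (edgeR adjusted p = 0.137). Slc4a5 and Car12, known from choroid plexus, averaged 9.11 ± 3.77 CPM in KO and 36.6 ± 13.1 CPM in WT libraries and 11.04 ± 5.95 CPM in KO and 42.00 ± 22.4 CPM in WT libraries and did not pass (edgeR adjusted p = 0.0561 and 0.077). Slc12a2, Stk39, Car14 and Slc4a2 are expressed by choroid plexus or oligodendrocytes too, whose lists moved with them, and the part of those cells was not tested. Of 21 potassium channel genes, 1 rose, Kcnd3, and none fell, with a median of 0.42. Kcna1, a channel of axons and some glia, averaged 34.98 ± 3.75 CPM in KO and 141 ± 76.7 CPM in WT libraries without passing (edgeR adjusted p = 0.0597).

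The 13 genes that rose had known roles of several kinds. Egfr, the receptor of epidermal growth factor (chr11:16752203-16918158), had 145, 151 and 136 CPM in KO libraries, against 83.9, 79.7 and 96.6 CPM in WT libraries, a log2 fold change of 0.73 ± 0.16 (log2, SE; edgeR adjusted p = 0.0434). Eps8, an actin regulator first known as a substrate of that receptor, had 156, 162 and 153 CPM in KO libraries, against 98.3, 90.6 and 110.2 CPM in WT libraries, a log2 fold change of 0.66 ± 0.13 (log2, SE; edgeR adjusted p = 0.0249). Its counts were 0.447 of the reads implied by its deposited RPKM, and those of Pde7b 0.580, so the levels of both are less certain. In the list of 25 EGF and FGF signalling genes, Egfr rose and Erbb3 fell, and the median was 0.30.

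Marcks, an actin-binding substrate of protein kinase C, had 77.8, 55.6 and 56.3 CPM in KO libraries, against 33.2, 36.8 and 33.2 CPM in WT libraries, a log2 fold change of 0.88 ± 0.14 (log2, SE; edgeR adjusted p = 0.014). Xylt1, which starts the sugar chains of proteoglycans, had 149, 165 and 151 CPM in KO libraries, against 58.4, 82.9 and 95.2 CPM in WT libraries, a log2 fold change of 0.97 ± 0.20 (log2, SE; edgeR adjusted p = 0.0331). Pcdh19, a protocadherin on the X chromosome, had 24.4, 26.7 and 28.2 CPM in KO libraries, against 13.5, 14.2 and 14.1 CPM in WT libraries, a log2 fold change of 0.92 ± 0.13 (log2, SE; edgeR adjusted p = 0.0112). Its WT libraries lay within 1 CPM of each other, the male mouse 296 included.

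Kcnd3, the A-type potassium channel Kv4.3, averaged 33.99 ± 2.14 CPM in KO and 17.8 ± 1.21 CPM in WT libraries, a change of 0.94 ± 0.19 (log2, SE; edgeR adjusted p = 0.0295). Grin2b, a subunit of NMDA receptors, averaged 17.7 ± 0.648 CPM in KO and 7.56 ± 1.05 CPM in WT libraries, a change of 1.22 ± 0.26 (log2, SE; edgeR adjusted p = 0.0406), the largest of the rises. Cpeb4, which controls translation by binding 3′ ends of mRNAs, averaged 186 ± 34.1 CPM in KO and 93.6 ± 4.96 CPM in WT libraries, a change of 0.99 ± 0.20 (log2, SE; edgeR adjusted p = 0.0295). Dtx4, a ubiquitin ligase of the Notch pathway, averaged 73.6 ± 9.92 CPM in KO and 36.7 ± 3.06 CPM in WT libraries (edgeR adjusted p = 0.0465). Mid1, a ubiquitin ligase on microtubules, rose by 0.70, as did Hectd2, of the HECT ligase family, by 0.96. Pde7b, a phosphodiesterase of cyclic AMP, and Sh3pxd2b, a podosome adaptor, rose by 0.83 and 0.60. Without the library of WT 296, 2 of the 13, Marcks and Pcdh19, still passed (edgeR). Without both libraries of mouse 296, Dtx4, Kcnd3, Pde7b and Eps8 passed besides these 2 (edgeR), and the rest of the 13 did not. All 13 stayed positive, which groups that do not overlap make nearly certain. Without the library of WT 474, 36 genes rose, and without that of WT 297, 1.

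The identity genes of astrocytes showed no call. Of 40 homeostatic astrocyte genes, 0 passed in edgeR (13 at an unadjusted p under 0.05, 1 by DESeq2 and 0 by limma-voom), 38 had a positive log2 fold change, and the median was 0.35. In 17 of them the KO libraries were all above the WT libraries, against 11% of all genes tested. The list mean was 9.87, 9.98 and 9.93 log2 CPM in KO libraries, against 9.35, 9.42 and 9.82 log2 CPM in WT libraries (exact permutation test, p = 0.1, the smallest possible). Slc1a3, the glutamate transporter GLAST, had 3605, 4251 and 4092 CPM in KO libraries, against 2036, 2643 and 3369.6 CPM in WT libraries, with a log2 fold change of 0.57 ± 0.23 (edgeR adjusted p = 0.283). Slc6a11, a GABA transporter, had 3391, 3109.8 and 3203 CPM in KO libraries, against 1489, 1918 and 2268 CPM in WT libraries, with 0.77 ± 0.27 (edgeR adjusted p = 0.207). Aldh1l1, a folate enzyme used as an astrocyte marker, averaged 327 ± 14.6 CPM in KO and 341 ± 66.6 CPM in WT libraries, with -0.06 ± 0.16. The relation between the share of oligodendrocyte RNA and these levels was not tested.

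Medians of related astrocyte lists were positive, and the 1 call in them was a fall. Aqp4, the water channel of endfeet, had 612, 672 and 643 CPM in KO libraries, against 244, 421 and 489 CPM in WT libraries, with 0.74 ± 0.30 (edgeR adjusted p = 0.285). Of 16 endfoot genes 0 passed (8 at an unadjusted p under 0.05, 1 by DESeq2 and 0 by limma-voom), 14 had a positive log2 fold change, with a median of 0.39, and Dag1, dystroglycan, came nearest to the threshold at 0.54 ± 0.14 (edgeR adjusted p = 0.0813). Of 16 genes of glutamate and GABA handling 13 were positive by sign and 1 fell, Got2, the mitochondrial aspartate aminotransferase, at -0.58 ± 0.12 (edgeR adjusted p = 0.0429). Got2 counts were 0.586 of the reads implied by its deposited RPKM, so its level is less certain. Astrocyte transcription factors had a median of 0.25 with 0 of 19 called, and synaptogenic factors 0.27 with 0 of 16. Forebrain and hindbrain regional genes, which differ with the tissue dissected, had medians of 0.25 and 0.30. None of these 4 lists had a call (13 at an unadjusted p under 0.05, 1 by DESeq2 and 0 by limma-voom).

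**Figure D3:**
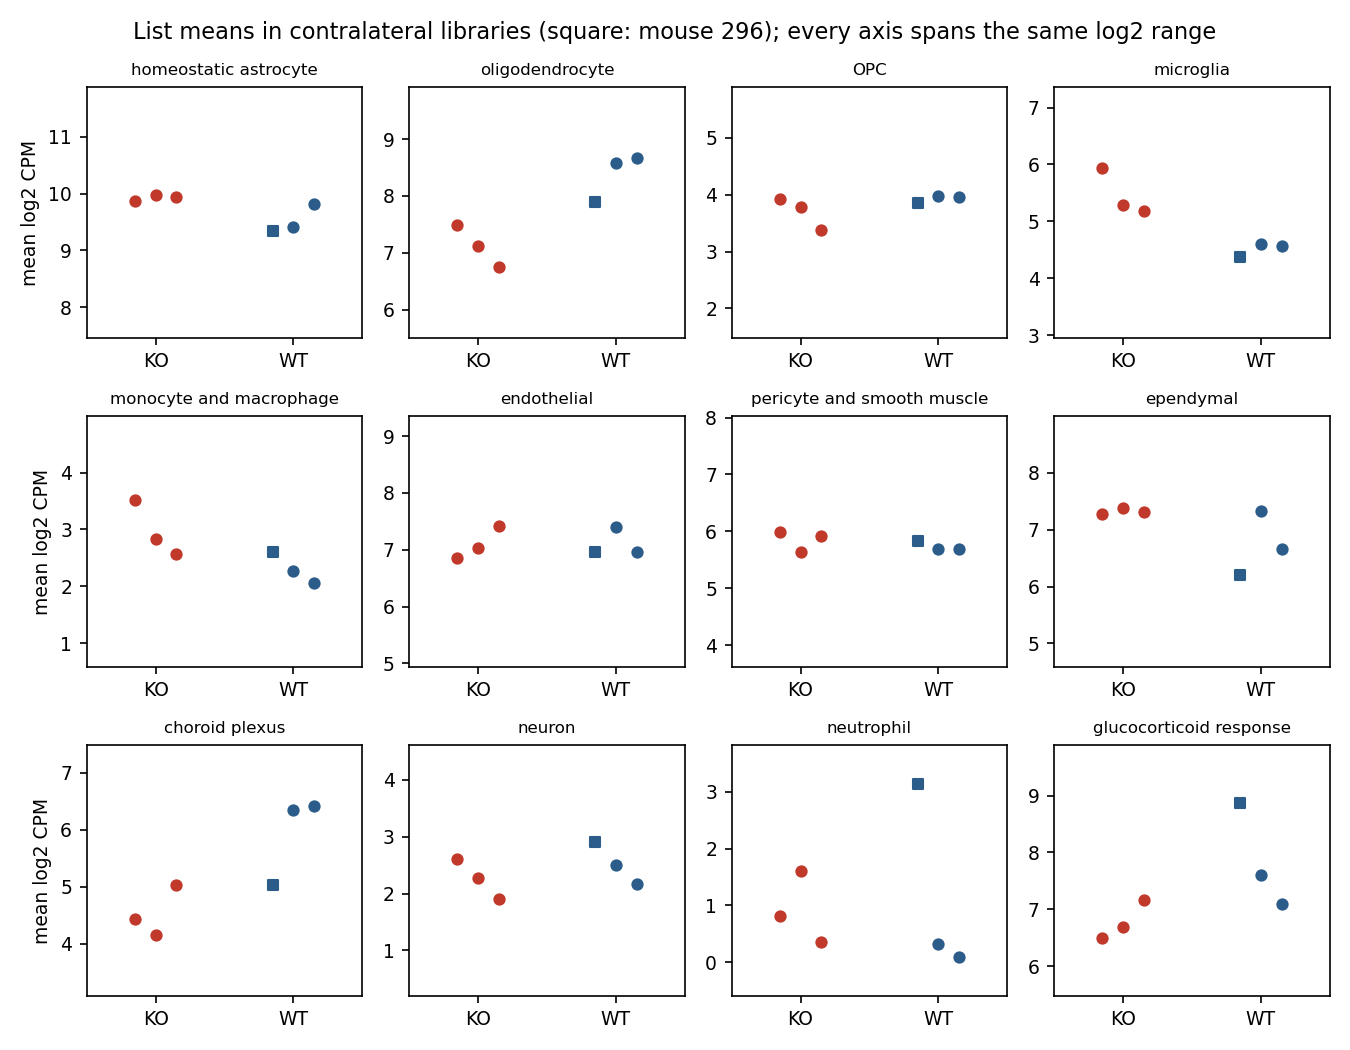
Mean log2 CPM of 12 gene lists in each contralateral library (vertical axes, all with the same span), KO at the left and WT at the right; the square is mouse 296. Oligodendrocyte means are lower in KO and microglia means higher without overlap, while mouse 296 holds the highest values of the neutrophil and glucocorticoid lists.

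No member of the injury and inflammation lists passed in edgeR. Outside the lists, Tnfaip6, a secreted hyaluronan-binding protein induced by inflammatory cytokines, and Il1rap, a subunit of the interleukin-1 receptor, fell, with log2 fold changes of -1.31 ± 0.23 (log2, SE; edgeR adjusted p = 0.0168) and -1.28 ± 0.18 (log2, SE; edgeR adjusted p = 0.0101), named after their values were seen. Gfap, the astrocyte filament that marks reactivity, had 787, 471 and 1391 CPM in KO libraries, against 1136, 1397 and 1057 CPM in WT libraries, and its log2 fold change of -0.44 ± 0.35 was within the spread (edgeR adjusted p = 0.57). Of 13 pan-reactive genes 0 passed in edgeR (4 at an unadjusted p under 0.05, 1 by DESeq2 and 0 by limma-voom), and the median was -0.81. That median leaned on mouse 296: Lcn2, a secreted lipocalin, had 8.18, 4.705 and 18.8 CPM in KO libraries, against 312, 29.6 and 9.26 CPM in WT libraries (edgeR adjusted p = 0.18), and Cxcl10, a chemokine, and Timp1, a protease inhibitor, had SDs larger than their means in WT libraries (4.42 ± 1.44 CPM in KO and 40.8 ± 64.2 CPM in WT libraries and 4.07 ± 4.79 CPM in KO and 31.6 ± 50.03 CPM in WT libraries). The A1 list had a median of 0.05 and the A2 list -0.77, with 0 of 12 called in each, and the intermediate filament list -0.32 with 0 of 9 (over the 3 lists, 5 at an unadjusted p under 0.05, 0 by DESeq2 and 0 by limma-voom). Immediate early genes were mostly lower in KO by sign, 22 of 25, with a median of -0.44 and no call (7 at an unadjusted p under 0.05, 0 by DESeq2 and 0 by limma-voom). Fos had 825, 842 and 701 CPM in KO libraries, against 1485, 1312 and 886 CPM in WT libraries (edgeR adjusted p = 0.268). Cytokine, interferon, MHC class I, complement and STAT3 lists had medians between -0.20 and 0.14, with no call in these 5 lists (12 at an unadjusted p under 0.05, 1 by DESeq2 and 0 by limma-voom). Among 20 hypoxia targets, a separate list, 1 fell, Ndrg1, a stress protein also abundant in oligodendrocytes, at -0.87 ± 0.19 (log2, SE; edgeR adjusted p = 0.043).

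No member of the Wnt, angiogenic and Notch lists, followed because Wnt and vascular growth factors of astrocytes act on blood vessels, was called in edgeR. Dtx4, which rose, is not in the Notch list. Wnt7a, a ligand for brain endothelium, had 96.3, 87.4 and 80.6 CPM in KO libraries, against 11.2, 35.2 and 88.7 CPM in WT libraries (log2 fold change 0.97 ± 0.54; edgeR adjusted p = 0.436). The WT values spread widely and overlapped the KO values. Wnt7b had 167, 154 and 157 CPM in KO libraries, against 93.2, 91.4 and 151 CPM in WT libraries (edgeR adjusted p = 0.275). Axin2, a feedback target of beta-catenin, averaged 72.6 ± 2.12 CPM in KO and 59.96 ± 3.89 CPM in WT libraries (0.28 ± 0.14; edgeR adjusted p = 0.399). Ctnnb1, beta-catenin itself, averaged 457 ± 43.7 CPM in KO and 439.7 ± 26.98 CPM in WT libraries (0.06 ± 0.14; edgeR adjusted p = 0.874). List medians were 0.34 for 14 Wnt ligands and secretion factors, 0.23 for 23 receptors, 0.06 for 23 transduction genes and targets, and 0.20 for 14 antagonists, with no call (9 at an unadjusted p under 0.05, 2 by DESeq2 and 0 by limma-voom). Vegfa, the main vascular growth factor, had 537, 492 and 445 CPM in KO libraries, against 251, 288 and 500.0 CPM in WT libraries (0.50 ± 0.24; edgeR adjusted p = 0.378), and 25 angiogenic factors had a median of 0.21 (4 at an unadjusted p under 0.05, 0 by DESeq2 and 0 by limma-voom). Of 17 Notch genes 14 were positive by sign, with a median of 0.32 (6 at an unadjusted p under 0.05, 1 by DESeq2 and 0 by limma-voom). Notch1 had 505, 494 and 546 CPM in KO libraries, against 410.2, 337 and 344 CPM in WT libraries, groups apart, and did not pass (edgeR adjusted p = 0.0942). Trophic factors had a median of 0.21 and no call (1 at an unadjusted p under 0.05, 1 by DESeq2 and 0 by limma-voom).

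Microglial genes were higher in KO by sign. All 18 tested had a positive log2 fold change, and the median was 1.01. In 12 the KO libraries were all above the WT libraries, against 11% of all genes tested. None passed in edgeR (4 at an unadjusted p under 0.05, 0 by DESeq2 and 0 by limma-voom). Cx3cr1, the fractalkine receptor of microglia, had 184, 128 and 119 CPM in KO libraries, against 23.8, 68.9 and 53.3 CPM in WT libraries, with 1.56 ± 0.65 (edgeR adjusted p = 0.302). P2ry12, a purine receptor of resting microglia, had 45.6, 39.3 and 32.6 CPM in KO libraries, against 10.96, 20.1 and 19.3 CPM in WT libraries, with 1.22 ± 0.50 (edgeR adjusted p = 0.292). The list mean was 5.94, 5.28 and 5.18 log2 CPM in KO libraries, against 4.37, 4.60 and 4.56 log2 CPM in WT libraries (exact permutation test, p = 0.1, the smallest possible). Of 16 monocyte and macrophage genes 13 were positive by sign, with a median of 1.15 and no call (7 at an unadjusted p under 0.05, 3 by DESeq2 and 0 by limma-voom). Ependymal genes were positive by sign in 15 of 15, with a median of 0.49 and no call (0 at an unadjusted p under 0.05, 0 by DESeq2 and 0 by limma-voom). Endothelial genes had a median of 0.01, pericyte and smooth muscle genes 0.16, fibroblast and meningeal genes -0.03, and erythrocyte genes -0.44, none called (7 at an unadjusted p under 0.05, 1 by DESeq2 and 0 by limma-voom). Neutrophil genes had a median of -1.24 over 9 tested with no call (2 at an unadjusted p under 0.05, 0 by DESeq2 and 0 by limma-voom), which followed mouse 296 (list mean 0.82, 1.61 and 0.36 log2 CPM in KO libraries, against 3.14, 0.32 and 0.09 log2 CPM in WT libraries). Neuronal RNA was scarce: Snap25, a synaptic protein, had 3.58, 1.75 and 1.64 TPM in KO libraries, against 3.37, 3.31 and 3.71 TPM in WT libraries. Cerebellar neuron genes had a median of 0.15 and no call (2 at an unadjusted p under 0.05, 1 by DESeq2 and 0 by limma-voom), and neuroblast and stem cell genes 0.42, where Egfr rose and Tubb3 fell.

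Protein synthesis genes were lower in KO by small amounts and without calls. Of 78 cytosolic ribosomal protein genes 0 passed in edgeR (5 at an unadjusted p under 0.05, 0 by DESeq2 and 0 by limma-voom), and 0 had a positive log2 fold change. In 60 of the 78 the KO libraries all lay below the WT libraries, against 13.5% of all genes tested. The list's median was -0.40, and on the ipsilateral side 0.04. The list mean was 6.80, 6.55 and 6.70 log2 CPM in KO libraries, against 7.29, 6.89 and 7.03 log2 CPM in WT libraries (exact permutation test, p = 0.1, the smallest possible). Proteasome genes had a median of -0.22, with 1 of 31 positive by sign, and nuclear genes of oxidative phosphorylation -0.18, with 7 of 50. V-ATPase and lysosome genes had a median of -0.22 and mitochondrially encoded genes -0.13, and these 4 lists had no call (13 at an unadjusted p under 0.05, 1 by DESeq2 and 0 by limma-voom). The mitochondrial share of counts was 0.923 to 1.21% in all 6 libraries, but mt-Co3, a gene that every cell uses, had 0 to 2 counts in each and 11 of 15 mitochondrial genes could be tested, so the counts miss mitochondrial reads and neither the share nor that median gives the true level.

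Metabolic lists stood near the median of all genes. Cholesterol synthesis genes had a median of 0.03, and 1 of 29 fell: Abcg1, a sterol exporter, at -1.23 ± 0.23 (log2, SE; edgeR adjusted p = 0.0226). Abcg1 counts were 0.563 of the reads implied by its deposited RPKM, so its level is less certain. The ATF4 stress list had a median of -0.20, and 1 of 21 fell: Mthfd2, a mitochondrial folate enzyme, at -1.31 ± 0.27 (log2, SE; edgeR adjusted p = 0.0327). Lactate and glycolysis genes (0.11), fatty acid genes (0.07), antioxidant genes (-0.02), metal-handling genes (0.08), chaperones (0.05), cell cycle genes (0.07), matrix proteases (-0.04), clock genes (0.22) and oestrogen-responsive genes (0.14), the last included because tamoxifen binds oestrogen receptors, had the medians given and no call (36 at an unadjusted p under 0.05, 6 by DESeq2 and 0 by limma-voom). Pgr, the progesterone receptor and a known oestrogen target, had 1.39, 1.103 and 1.39 CPM in KO libraries, against 0.174, 0.714 and 0.496 CPM in WT libraries, with 1.46 ± 0.53 (edgeR adjusted p = 0.233). Scar matrix genes had a median of 0.15, and the member that fell was Hapln2, which is also in the oligodendrocyte list.

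**Figure D4:**
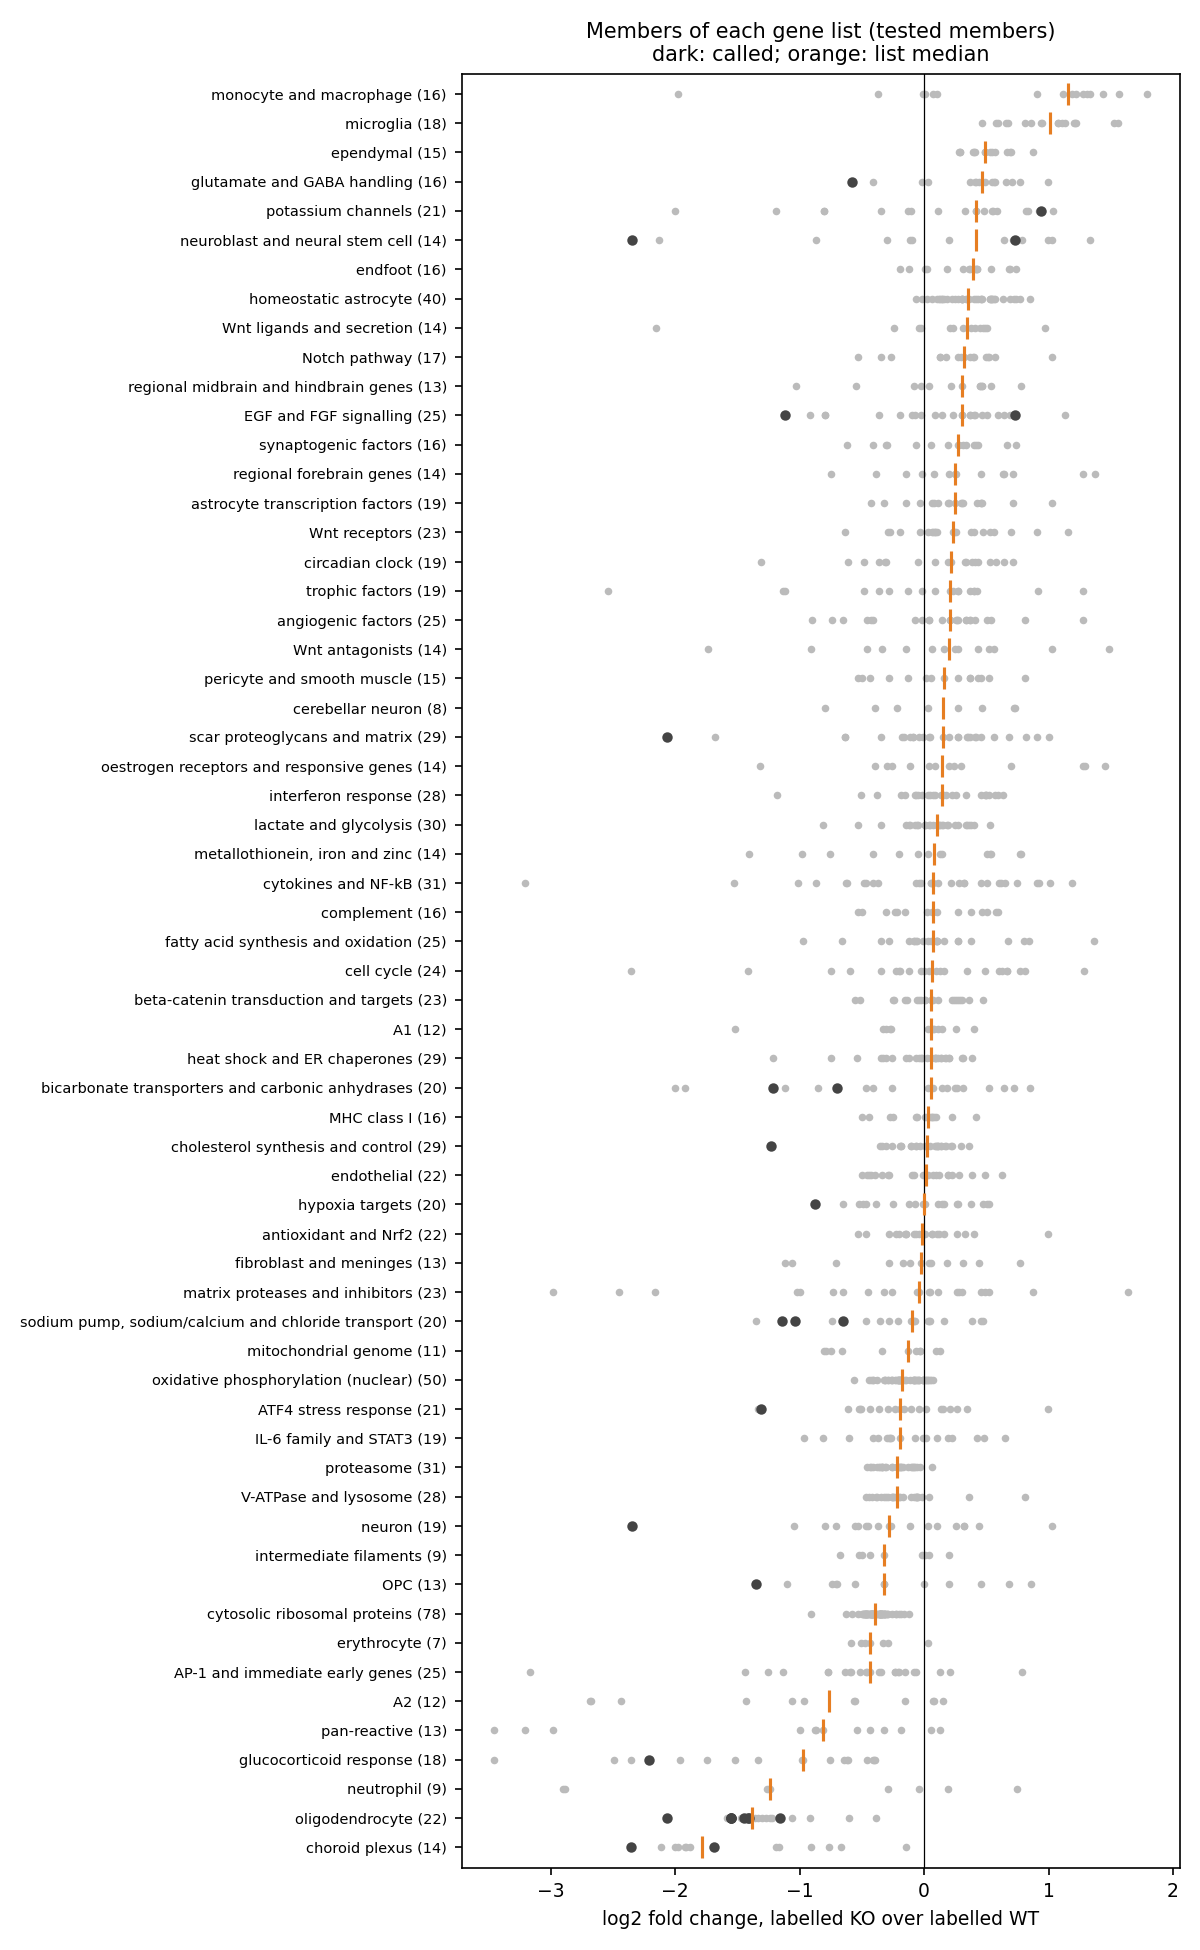
Log2 fold change of KO over WT contralateral libraries (horizontal axis) for the tested members of each gene list (rows, with the number tested); grey points did not pass, dark points passed, and orange bars are list medians. Lists run from the monocyte and macrophage list at the top, median 1.15, to the choroid plexus list at the bottom, median -1.79.

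The same genes were then read on the ipsilateral side of the same mice, to ask whether the difference depends on the hemisphere. There 983 genes passed (6.31%; 675 higher in KO, 4.33%, and 308 lower, 1.98%). Of the 220 contralateral falls, 219 had a negative ipsilateral log2 fold change, 141 also fell there and 0 rose, with an ipsilateral median of -0.94, and the value was less negative there in 199 of them. Of the 13 rises all were positive ipsilaterally, and 4 also rose there, Xylt1, Marcks, Pde7b and Eps8, with an ipsilateral median of 0.46. The 2 sides come from the same mice, so the ipsilateral values are not independent support. The genes were picked for their contralateral change, so smaller ipsilateral values can follow from that choice and do not show a side difference.

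Hapln2 had an ipsilateral log2 fold change of -1.72, Slc12a2 of -0.99 and Apod of -1.06. The oligodendrocyte list had an ipsilateral median of -0.96 and the homeostatic astrocyte list of 1.02, where 32 of its 40 genes rose. Over all genes tested 4.33% rose on that side. A test of the difference between the sides called 0 of 15571 genes (edgeR interaction, smallest adjusted p = 0.949), with 763 (4.9%) at an unadjusted p under 0.05. That fit did not use the pairing of the 2 sides within a mouse. Limma-voom with the mouse as a replicate block also called 0, with 1581 genes at an unadjusted p under 0.05, against 702 without the block. By the edgeR test no single gene, including those that passed on 1 side only, is shown to differ between the hemispheres. DESeq2 called 20 genes for that difference and limma on log2(TPM + 0.1) called 2, so the count depended on the tool.

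**Figure D5:**
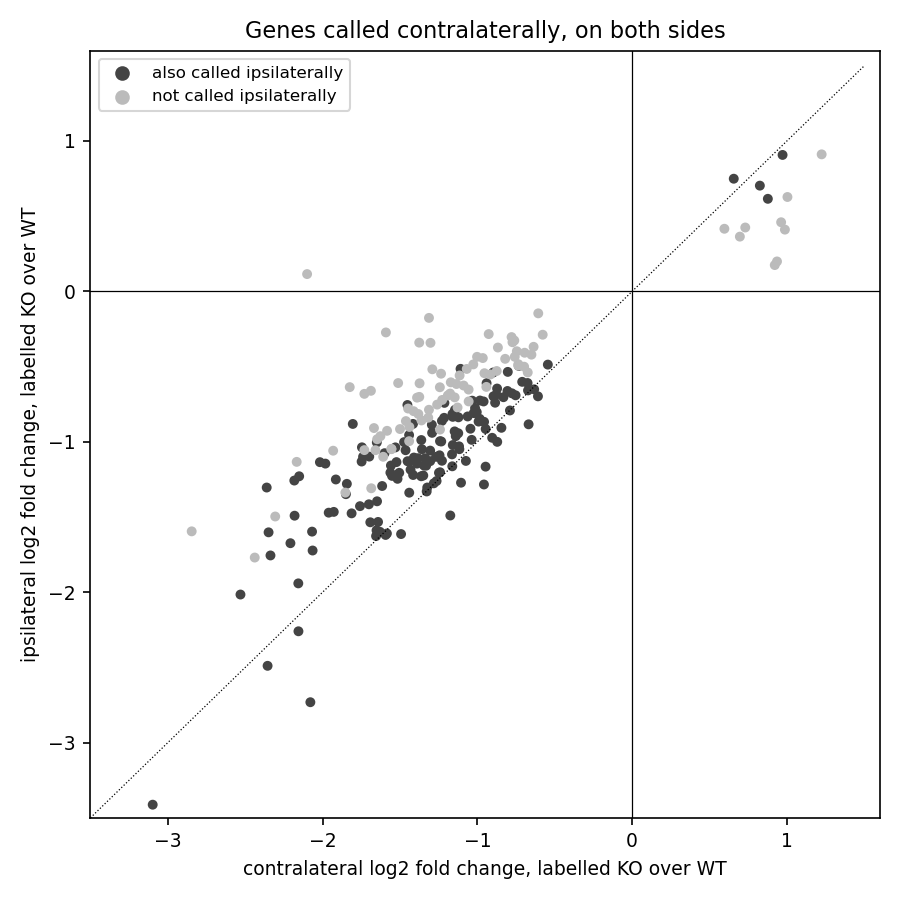
Ipsilateral (vertical axis) against contralateral (horizontal axis) log2 fold change of KO over WT for the 233 genes that passed contralaterally; dark points also passed ipsilaterally and the dotted line marks equal values. Nearly all points lie in the lower left or upper right quadrant, and 199 of the 220 falls lie above the dotted line. The genes were picked by their contralateral values, so this shift does not show a side difference.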

How the data were processed

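RNA of ACSA-2-selected astrocytes from both hemispheres of 6 mice was sequenced on an Illumina HiSeq instrument, per the labels' protocols. Each library has a deposited table of 48709 genes with read counts, TPM and RPKM, all made by the authors. Counts were tested, deposited TPM served one alternative and levels per length, and deposited RPKM served checks. The submitters' processing notes name mm10. How reads were aligned and counted, and on which strand, is not given in the sources used here. Deposited counts and RPKM were proportional within 2% for 64.6% of 12668 genes, so some genes' counts hold only part of their reads.

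All 12 libraries entered 1 edgeR 4.0.16 quasi-likelihood fit (R 4.3.3, robust, TMM, filterByExpr minimum count 10, 1 term per group, 8 residual degrees of freedom). The fit, and with it the contralateral test, treated the 2 libraries of a mouse as independent, although they were correlated (0.362). P-values were adjusted by Benjamini-Hochberg and called at 0.05. SEs are the log2 fold change over the square root of F. Levels are CPM, and SDs are over 3 libraries. List means are of log2 CPM (prior count 2). No 2 libraries of a group were duplicates (chi-squared per degree of freedom 8.97 to 50.2). Alternatives used DESeq2 1.42.0, limma 3.58.1, other scalings and filters, TPM, left-out libraries and an oligodendrocyte covariate.

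The members and lists were chosen with earlier results of these data known. Named genes were the 20 largest rises and falls of mean log2 CPM of at least 2 with groups apart, unnamed models aside, up to 4 per list by p, and the study's genes; others are marked as chosen after seeing values. A planned check of the targeted gene and its family, and some values under this rule, are not reported here.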

Additional observations from a re-analysis of the deposited data

Results flagged for a closer look

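Some genes had no counts in any of the 6 libraries but a deposited TPM, and 4 of them stood higher in KO libraries with a mean of at least 10 TPM and a ratio of at least 1.5. Sox2, a transcription factor of neural stem cells and astrocytes, had 272, 279 and 234 TPM in KO libraries, against 146, 131 and 173 TPM in WT libraries, a ratio of 1.74 (limma on log2(TPM + 1), adjusted p = 0.123). It lies within Sox2ot on the same strand. Fam181b had 187, 151 and 159 TPM in KO libraries, against 57.5, 85.4 and 133 TPM in WT libraries, a ratio of 1.804 (limma adjusted p = 0.164), and also overlaps other genes. The gene models Gm21860 and Gm21748 had ratios of 2.181 and 3.003 (limma adjusted p = 0.517 and 0.440). Both had 4.46 TPM in WT 296 and 9.05 TPM in WT 474, so they may not be independent of each other. In all, 484 genes with 0 counts carried some TPM, 81 of them at least 1 TPM in all 6 libraries, of which 23 had KO higher without overlap and 1 KO lower. Such genes held 0.437 to 0.51% of TPM. How the counts came to be 0 was not tested.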

How the results depend on the processing

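The 233 genes kept their sign in every setting, and the oligodendrocyte list mean, KO minus WT, stayed between -1.07 and -1.52 log2 units. The groups of all 233 did not overlap, so leaving out a library could hardly reverse a sign. No paired analysis was possible because KO and WT mice share no number; limma-voom with the mouse as a replicate block, pairing each mouse's hemispheres (correlation 0.362), called 232. DESeq2 called 660 (121 genes called higher in KO and 539 genes called lower in KO; 20 interaction genes). Limma on log2(TPM + 1) called 149 (130 lower) and on log2(TPM + 0.1) 140 (124 lower; 2 interaction genes); TPM moved the median of all genes to 0.12 and 0.14. Genes higher in KO numbered 8 without a filter, 23 in the 6 contralateral libraries alone and 24 there with RLE scaling. The 6 contralateral libraries alone called 268 genes, and 195 of the 233 were among them. Of the rises, Xylt1, Mid1, Pde7b, Sh3pxd2b and Hectd2 did not pass there (edgeR adjusted p = 0.0541 to 0.0863), and the other rises did. Falls that did not pass there included Erbb3, Atp1b3, Enpp2, Pcdh15 and Ndrg1 (edgeR adjusted p = 0.0514 to 0.0911). Leaving out 1 library gave 0 to 217 calls (0 to 36 higher, 0 to 212 lower), and groups apart in 28.9 to 40.4% of genes. A smaller group lies apart by chance more often, so these shares cannot be compared with the 24.5% of the full groups. The oligodendrocyte covariate left 0 calls (0 higher, 0 lower). The contralateral libraries without mouse 296, a fit chosen with the RLE one after seeing the data, gave 696 (104 higher, 592 lower). The causes were not tested. With 3 against 3 the exact test cannot go below 0.1.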
